A study of Mus musculus with 11 samples.

Results

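Ionocytes are rare epithelial cells that move ions and protons across airway, kidney, inner ear and gland epithelia. In the thymus some medullary epithelial cells take on the programme of such peripheral cells and are called mimetic cells, and ionocyte-like cells are among them. The forkhead factor Foxi1 sets ionocyte fate, and its known targets include subunits of the vacuolar proton pump (V-ATPase), which acidifies compartments or secretes protons at the cell surface. Aire, the regulator altered in these mice, drives tissue-restricted genes in medullary epithelial cells, so that their proteins can be shown to developing T cells.

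Described here are 9 genes of the ionocyte programme, of 56691 genes in the count table: the regulators Foxi1, Foxi2 and Ascl3, the proton pump subunits Atp6v1b1 and Atp6v1g3, and the ion transport genes Kcnj1, Cftr, Slc12a2 and Bsnd. They were chosen by symbol, and each matched 1 Ensembl identifier. The libraries come from thymi of NOD mice, a strain prone to autoimmune diabetes, aged 4 to 8 weeks. Cells positive for the epithelial marker EpCAM were sorted after bead depletion of CD45-positive blood cells, and libraries were made from low-input total RNA. The genotypes are Aire WT/WT (3 libraries), WT/R249C (5) and R249C/R249C (3), where R249C replaces 1 amino acid within Aire's SAND domain, and every group is on the NOD background. The sort takes cortical and medullary epithelium together, and the labels do not say how many mice each library pools.

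The column names of the table split the libraries by sequencing lane and by the word trimmed, and these sets are called batches A and B. All R249C/R249C libraries, 3 of the WT/R249C libraries and 1 of the WT/WT libraries are in batch A. The remaining 2 of each of the WT/WT and WT/R249C genotypes make up batch B. WT/R249C replicates 4 and 5 carry contradicting labels (WT/R249C in the title, R249C/R249C in the genotype field) and were grouped by title; they are all of the WT/R249C libraries of batch B. Library totals ran from 60560348 to 182319976 counts, and the libraries held 22101 to 31180 genes with a count. WT/R249C replicate 3 had both the smallest total and the fewest genes. Levels are given as CPM, counts divided by the library total and scaled to a fixed depth. Epcam, the sort marker, was between 355 and 521 CPM in every library, and Foxn1, the regulator of thymic epithelial identity, between 58.1 and 189. In bulk samples fewer ionocyte-like cells and less RNA per cell cannot be told apart.

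The stretches of 250 bases before the annotated starts of Foxi1, Atp6v1b1 and Atp6v1g3 are shown because forkhead factors bind the core TGTTTAC and these are the regulator and both pump subunits. The sequences are RefSeq's, build GRCm38.p6, and capitals mark matches to TGTTTNC on either strand, a looser core that includes TGTTTAC. They lie at chr11:34208090-34208339 (minus strand), chr6:83742767-83743016 (plus strand) and chr1:138273488-138273737 (plus strand), in that order.
Foxi1: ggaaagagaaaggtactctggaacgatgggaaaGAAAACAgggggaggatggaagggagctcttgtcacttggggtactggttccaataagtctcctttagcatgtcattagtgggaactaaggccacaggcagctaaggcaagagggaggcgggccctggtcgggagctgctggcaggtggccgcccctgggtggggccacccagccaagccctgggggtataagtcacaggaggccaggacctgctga
Atp6v1b1: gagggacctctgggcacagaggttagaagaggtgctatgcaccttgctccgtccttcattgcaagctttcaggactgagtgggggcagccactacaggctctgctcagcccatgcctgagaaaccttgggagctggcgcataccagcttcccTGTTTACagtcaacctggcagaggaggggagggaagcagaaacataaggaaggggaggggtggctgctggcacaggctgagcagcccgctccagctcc
Atp6v1g3: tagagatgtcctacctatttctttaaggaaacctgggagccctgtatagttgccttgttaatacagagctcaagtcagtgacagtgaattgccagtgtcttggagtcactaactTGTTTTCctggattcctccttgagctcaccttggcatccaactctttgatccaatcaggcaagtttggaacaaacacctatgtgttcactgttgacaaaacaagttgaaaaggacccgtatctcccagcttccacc

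Of the 7 members with a promoter in the RefSeq table, Atp6v1b1 alone held the strict core TGTTTAC, from 98 to 92 bases before its start on the gene's own strand. That core was in 3.17% of all 32851 promoter windows of this length. The looser core TGTTTNC was in 3 of the 7 (Foxi1, Atp6v1b1 and Atp6v1g3) and in 17.8% of all windows. In Foxi1 the match read GAAAACA, the core on the opposite strand, from 217 to 211 bases before the start. These matches describe the letters of the windows and no binding was measured.

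The ionocyte genes were present in sorted thymic epithelium at low and patchy levels. Of the 99 values of 9 genes in 11 libraries, 64 were above 0 and 35 were 0. Values above 0 were rarely as low as a few counts, with a median of 435.5 counts and a smallest of 5. Zeros thus stood beside large counts of the same gene. The number of members with a count was 6, 4 and 8 in WT/WT replicates 1 to 3, 8, 7, 6, 8 and 4 in WT/R249C replicates 1 to 5, and 6, 3 and 4 in R249C/R249C replicates 1 to 3. Each genotype had libraries with 6 or more members and libraries with 4 or fewer. Other genes at this level of expression also held zeros. Of the 7642 genes with a mean between 1 and 10 CPM, 57.5% were at 0 in at least 1 library and 13.2% of their values were 0. The 6 members in that range (Foxi1, Foxi2, Atp6v1b1, Atp6v1g3, Cftr and Bsnd) were at 0 in 1 to 6 of 11 libraries, where the median gene was at 0 in 1. All but Atp6v1b1 were thus at 0 in more libraries than the median gene. Ascl3 (at 0 in 6 libraries) and Kcnj1 (in 9) had means between 0.1 and 1 CPM. In that range 40.5% of values were 0 and the median gene was at 0 in 5 libraries.

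Per kilobase of exon (GENCODE M21 exon union), the mean level over the 11 libraries was highest for Slc12a2 at 3.00 CPM per kilobase. Foxi1 (1.79), Atp6v1b1 (1.32) and Ascl3 (1.21) came next, followed by Atp6v1g3 (0.779), Foxi2 (0.767) and Cftr (0.666), then Bsnd (0.387) and Kcnj1 (0.0462). The ranges over libraries overlapped for every neighbouring pair in this order. By the median instead of the mean, Ascl3, Bsnd and Kcnj1 were at 0. On the same scale, Slc12a2 had a count in every library and varied from 0.868 to 4.97, while Foxi1 varied from 0 to 4.43 and Ascl3 from 0 to 8.25.

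**Figure D1:**
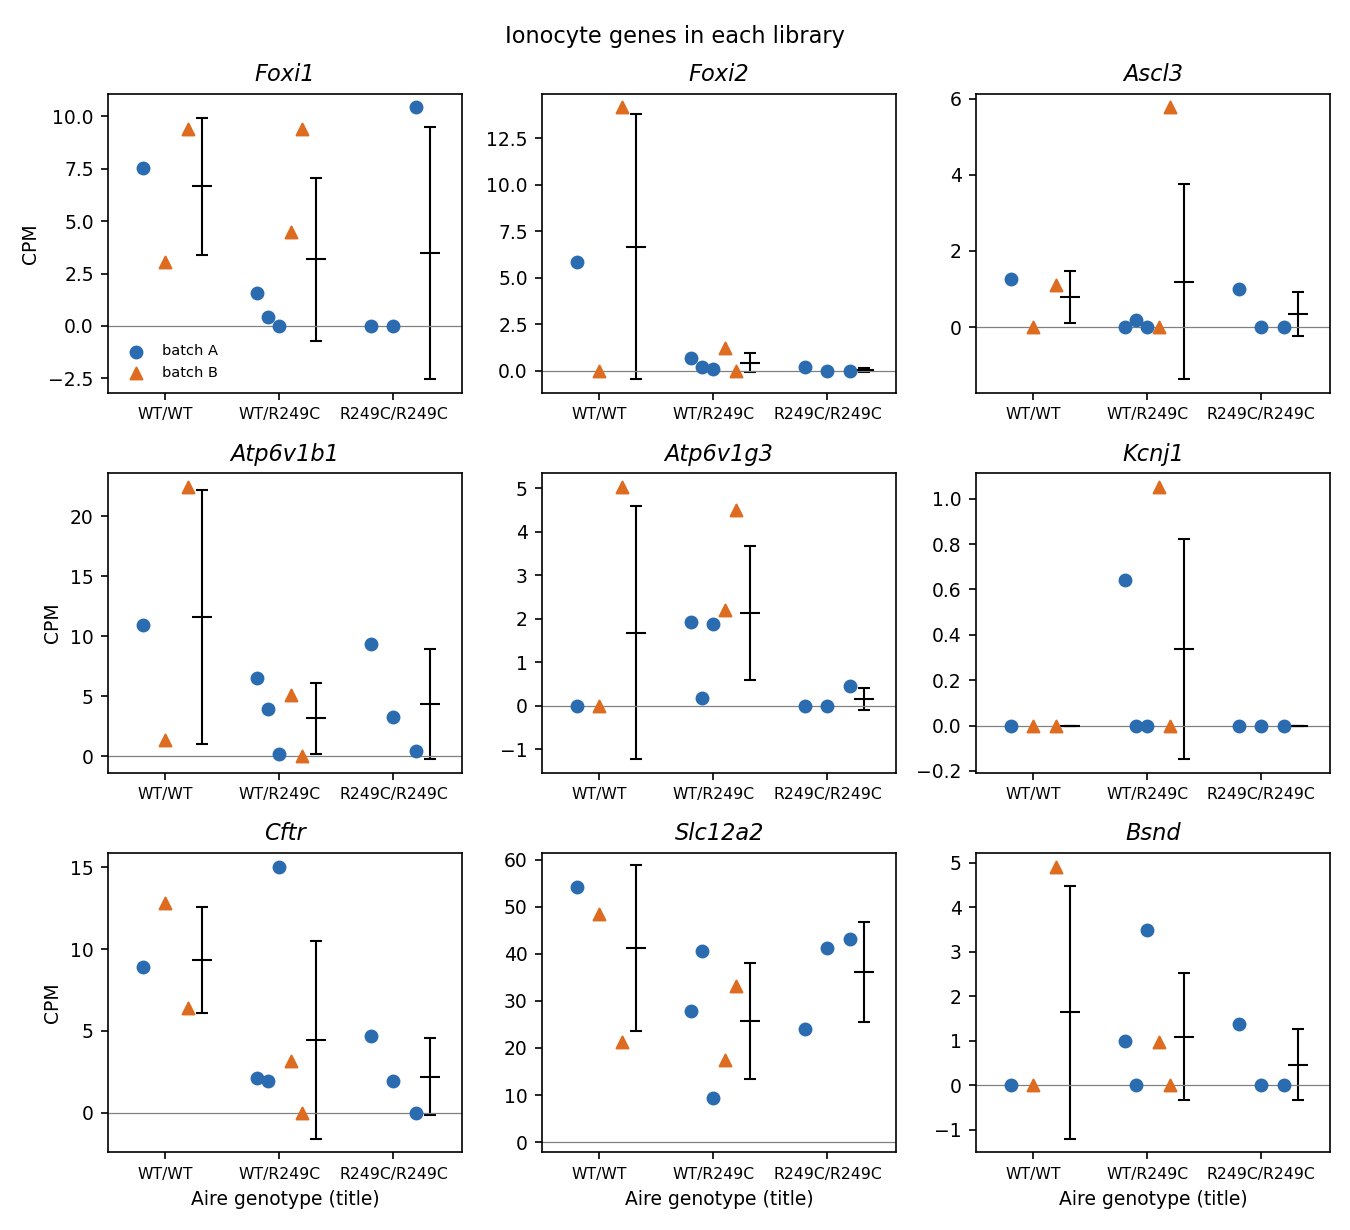
CPM of each of the 9 ionocyte genes (y axis, linear) in the 11 libraries by Aire genotype (x axis), with blue circles for batch A, orange triangles for batch B, and the black bar and whiskers for mean ± SD. Slc12a2 is the only gene above 0 in all 11 libraries, and Foxi2 is above 5 CPM in 2 WT/WT libraries and at or below 1.23 CPM in all 8 libraries with R249C.

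Among the regulators, Foxi1, the forkhead factor that sets ionocyte fate, was at 7.52, 3.05 and 9.41 CPM in WT/WT replicates 1 to 3. It was at 1.55, 0.422, 0, 4.49 and 9.41 CPM in WT/R249C replicates 1 to 5. In R249C/R249C it was at 0, 0 and 10.4 CPM. The highest library of all was thus R249C/R249C replicate 3, with 960 counts, beside 2 libraries of the same genotype with none. A count of 0 allows up to 0.0267 and 0.029 CPM in those 2 libraries (3 counts, counting error only). The 3 genotypes overlapped.

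Foxi2, a close relative of Foxi1, was at 5.84, 0 and 14.2 CPM in WT/WT. In WT/R249C it was at 0.689, 0.194, 0.0826, 1.23 and 0 CPM. In R249C/R249C it was at 0.196, 0 and 0 CPM. Both high values belonged to WT/WT, but WT/WT replicate 2 had no count, so the genotypes overlapped. Foxi1 and Foxi2 did not keep a common pattern: R249C/R249C replicate 3 and WT/R249C replicate 5 had Foxi1 at 10.4 and 9.41 CPM and Foxi2 at 0.

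Ascl3, a basic helix-loop-helix factor found in airway ionocytes and salivary ducts, had a count in 5 of 11 libraries. It was at 1.25, 0 and 1.11 CPM in WT/WT and at 1.01, 0 and 0 in R249C/R249C. In WT/R249C it was at 0.186 CPM in replicate 2, 5.77 CPM in replicate 5 and 0 in the other 3. That one library, of contested label, set the WT/R249C mean of 1.19 ± 2.56 CPM (SD, n = 5).

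Of the pump subunits, Atp6v1b1 encodes the B1 subunit found in acid-secreting cells. It was at 10.9, 1.35 and 22.4 CPM in WT/WT, at 6.55, 3.93, 0.198, 5.15 and 0 CPM in WT/R249C, and at 9.39, 3.30 and 0.424 CPM in R249C/R249C. The 2 highest values were WT/WT libraries and the third was R249C/R249C replicate 1, which had no Foxi1 count. Conversely, R249C/R249C replicate 3 and WT/R249C replicate 5, both high in Foxi1, had Atp6v1b1 at 0.424 and 0 CPM.

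Atp6v1g3, the G3 subunit of kidney intercalated cells, had a count in 5 of 5 WT/R249C libraries, at 1.92, 0.186, 1.88, 2.20 and 4.49 CPM. It had a count in 1 of 3 WT/WT libraries (5.03 CPM in replicate 3) and 1 of 3 R249C/R249C libraries (0.457 CPM in replicate 3). The heterozygous libraries lay within the range set by the WT/WT libraries.

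The broadly used partners of these subunits had counts in every library. Atp6v1b2, the B subunit of most cells, ran from 110 to 230 CPM, and the 16 general pump genes summed to 1883 to 2185 CPM over all libraries. Atp6v1b1 made up 4.55, 0.925 and 10.5% of the summed CPM of Atp6v1b1 and Atp6v1b2 in WT/WT replicates 1 to 3. Its share was between 0 and 4.66% in WT/R249C and 4.71, 2.48 and 0.232% in R249C/R249C. Atp6v1g3 made up at most 2.47% of the CPM of Atp6v1g3 and Atp6v1g1. These shares compare CPM without a correction for length, and WT/WT replicate 3 had the highest share of both subunits.

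**Figure D2:**
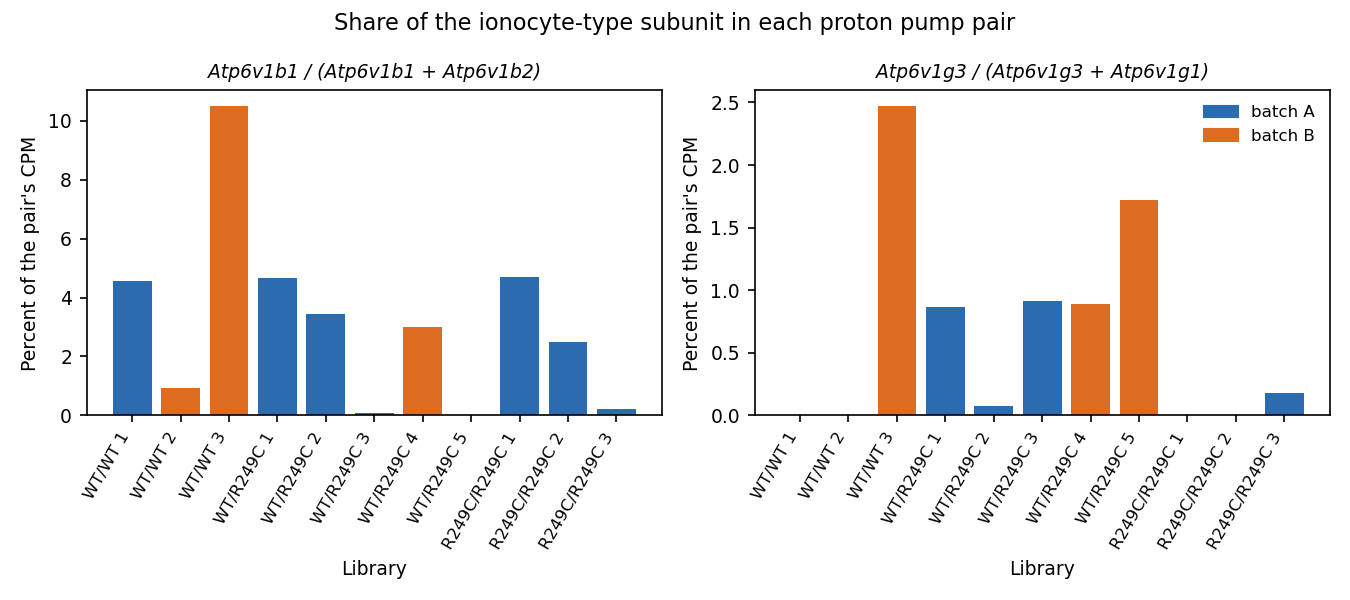
Percent of the CPM of a subunit pair contributed by the ionocyte-type subunit (y axes, starting at 0; left, Atp6v1b1 with Atp6v1b2; right, Atp6v1g3 with Atp6v1g1) in each library (x axis), blue for batch A and orange for batch B. WT/WT replicate 3 is the highest in both panels, at 10.5% and 2.47%, while WT/WT replicate 2 is at 0.925% and 0%.

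Of the ion transport genes, Cftr encodes a chloride and bicarbonate channel for which airway ionocytes are known. It was at 8.91, 12.8 and 6.37 CPM in WT/WT and at 4.68, 1.94 and 0 CPM in R249C/R249C. In WT/R249C it was at 2.10, 1.94, 15.0, 3.13 and 0 CPM. The R249C/R249C libraries all lay below the WT/WT libraries, whereas WT/R249C held both the highest value of all (replicate 3) and a 0 (replicate 5). An antisense gene, Gm15592, overlaps exons of Cftr, and without a stated strand setting their reads cannot be told apart.

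Slc12a2, the sodium, potassium and chloride cotransporter of secretory epithelia (NKCC1), is used by many cells beside ionocytes. It was at 54.2, 48.5 and 21.3 CPM in WT/WT and at 27.9, 40.5, 9.48, 17.5 and 33.1 CPM in WT/R249C. R249C/R249C libraries were at 23.9, 41.3 and 43.2 CPM. The lowest value came from WT/R249C replicate 3, the smallest library, and the genotypes overlapped.

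Bsnd encodes barttin, an accessory subunit of epithelial chloride channels. It was at 4.91 CPM in WT/WT replicate 3 and 0 in the other WT/WT libraries, at 0.999, 0, 3.48, 0.967 and 0 CPM in WT/R249C, and at 1.38, 0 and 0 CPM in R249C/R249C. Kcnj1, the potassium channel ROMK, had counts in 2 libraries only, WT/R249C replicates 1 (0.640 CPM) and 4 (1.05 CPM). It was at 0 in all WT/WT and R249C/R249C libraries, so no fold change between those genotypes is given. The pooled WT/R249C level of Kcnj1 was at least 58.3-fold higher than the WT/WT floor of 3 counts over the group, on the counts of 2 of 5 libraries. Replicate 4, the higher of these, carries the contested label, and Kcnj1 did not pass the filter on low counts.

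WT/WT replicate 3 was the highest library for 4 of the 9 members (Foxi2, Atp6v1b1, Atp6v1g3 and Bsnd). It was also the deepest library. The other 5 members peaked in 5 different libraries, of all 3 genotypes.

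R249C/R249C was compared with WT/WT to ask whether the ionocyte genes differ in mice homozygous for the variant. With batch in the model of the 11 libraries (edgeR quasi-likelihood test, two-sided), 8 of the 9 members passed the filter on low counts and 0 of 8 were called at an adjusted p under 0.05, beside 0% of the 26980 genes tested. At an unadjusted p under 0.05 there were also 0 of 8, beside 3.21% of genes. DESeq2 called 0 of the members and 1.51% of genes, and limma voom called 0 of the members and 0% of genes. All 8 tested members had a fitted fold change below 0 (51% of genes did), with a median log2 fold change of -1.09 against -0.02 over all genes. Since the members were picked with earlier results of these data known, this count is a description.

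Foxi2 had the lowest fitted value in R249C/R249C against WT/WT, a log2 fold change of -6.11 (SE 3.44, 95% interval -13.9 to 1.69, edgeR adjusted p of 1). Its means were 0.0652 ± 0.113 and 6.67 ± 7.13 CPM (SD, n = 3 and 3), and within batch A, against the single WT/WT library there, the log2 fold change was -6.39. Cftr followed at -2.97 (SE 2.73, interval -9.16 to 3.22, adjusted p of 1), with means of 2.21 ± 2.35 and 9.36 ± 3.24 CPM, and -1.97 within batch A. It was the 1 of 8 tested members whose libraries did not overlap between these genotypes, beside 8.1% of all genes in either direction and 4.68% lower as Cftr was. For Foxi1 the fitted value was -0.04 (SE 2.66, interval -6.06 to 5.97), with means of 3.48 ± 6.03 and 6.66 ± 3.26 CPM. Its sign turned when WT/WT replicate 1 (2.58), WT/R249C replicate 1, or R249C/R249C replicate 1 or 2 was left out, and leaving out R249C/R249C replicate 3 gave -11.7. That last run left R249C/R249C without a Foxi1 count, so its value sets no size.

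The interval for Slc12a2 was the narrowest, from -1.79 to 1.10 around -0.34 (SE 0.64, adjusted p of 1), and its sign turned without WT/WT replicate 1 (0.08). The remaining 4 fitted values were -1.52 for Atp6v1b1, -1.76 for Bsnd, -0.67 for Atp6v1g3 and -0.37 for Ascl3. The intervals ran from -16.0 to 12.5 for Bsnd, from -11.33 to 9.999 for Atp6v1g3 and from -8.14 to 7.40 for Ascl3, so these libraries give neither a direction nor a size for them.

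**Figure D3:**
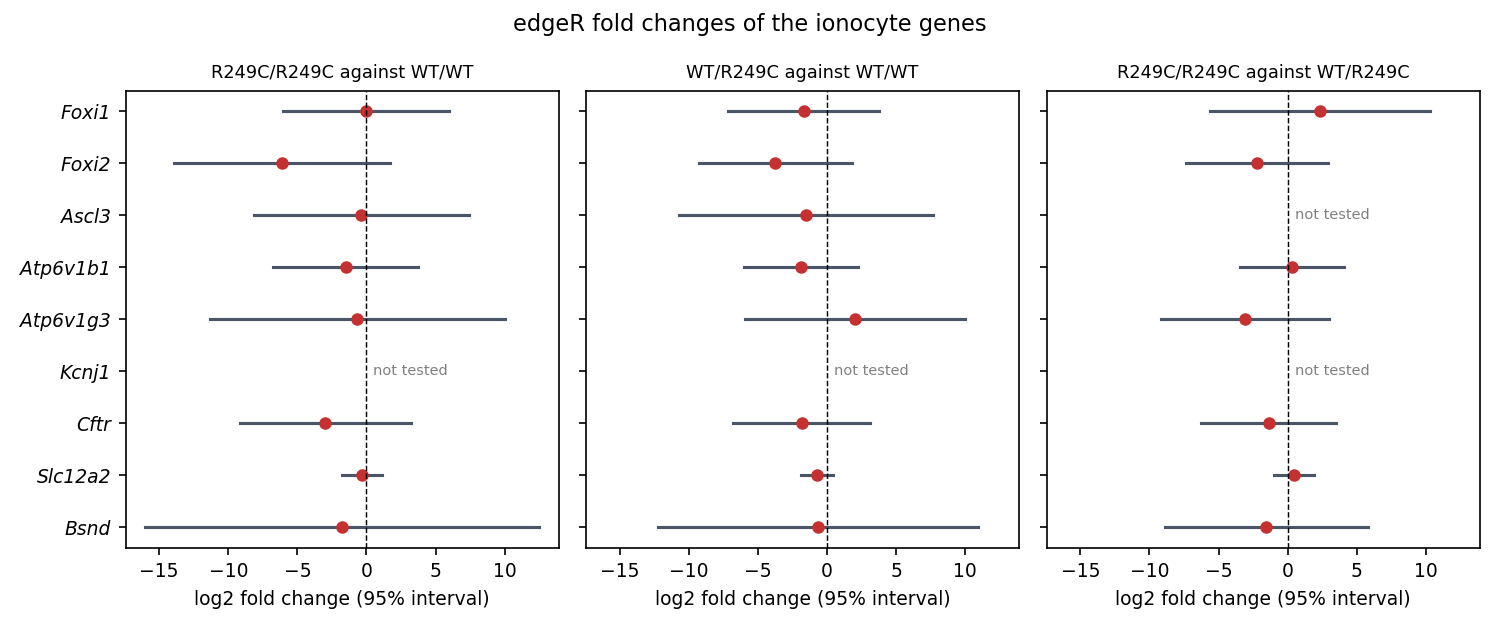
edgeR log2 fold change (red point) and 95% interval (grey bar) of each ionocyte gene on the x axis, for R249C/R249C against WT/WT (left), WT/R249C against WT/WT (middle) and R249C/R249C against WT/R249C in batch A (right). Each interval crosses 0 (dashed line), and Slc12a2 has the shortest bar in all 3 panels.

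WT/R249C was compared with WT/WT for the effect of a single variant copy, and this comparison shares its WT/WT libraries with the one above. Again 8 members were tested and 0 were called, beside 0% of 26980 genes. At an unadjusted p under 0.05 the counts were 0 of 8 and 3.48%, and DESeq2 called 0 members and 1.02% of genes while limma voom called 0 of either. Of the 8, 7 had a fitted value below 0 (48.5% of genes did), with a median log2 fold change of -1.61 against 0.02 over all genes. Foxi2 was at 0.439 ± 0.517 against 6.67 ± 7.13 CPM (n = 5 and 3), a log2 fold change of -3.75 (SE 2.45, interval -9.30 to 1.80, adjusted p of 1). The within-batch values of Foxi2 were -4.16 in batch A and -3.44 in batch B, which has only the contested WT/R249C libraries. Atp6v1b1 was at 3.17 ± 2.95 against 11.6 ± 10.5 CPM, a log2 fold change of -1.90 (SE 1.83), and -1.60 and -2.12 within the batches.

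For Slc12a2 the log2 fold change was -0.72 (SE 0.51, interval -1.87 to 0.42), with means of 25.7 ± 12.3 and 41.3 ± 17.6 CPM. Foxi1 stood at -1.68 (SE 2.41), but at -3.48 within batch A and 0.20 within batch B, so its direction differed between batches. It also turned to 0.21 without WT/WT replicate 1. Cftr stood at -1.82 (SE 2.19), with -0.61 and -2.56 within batches A and B. Atp6v1g3 lay the other way at 2.02 (SE 3.51, interval -5.93 to 9.97). The libraries of these genotypes overlapped for all 8 tested members, while 2.93% of genes did not overlap.

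The mutant genotypes were set against each other, homozygous over heterozygous, in the 6 libraries of batch A. Ascl3 and Kcnj1 did not pass the filter there, and 0 of the 7 tested members were called, beside 0% of 23695 genes. At an unadjusted p under 0.05 there were 0 of 7, beside 1.08% of genes, and DESeq2 called 0 members and 0.131% of genes, limma voom 0 of either. The members lay on both sides, 3 higher and 4 lower (49.2% of genes lower), with a median log2 fold change of -1.38 against 0.01. Foxi1 was at 3.48 ± 6.03 against 0.656 ± 0.800 CPM (n = 3 and 3), a log2 fold change of 2.34 (SE 3.26, interval -5.62 to 10.3). It was -9.17 without R249C/R249C replicate 3, the one library of that genotype with counts. Atp6v1g3 stood at -3.10 (SE 2.48, interval -9.17 to 2.97) and Foxi2 at -2.24 (SE 2.10). For Slc12a2 the value was 0.47 (SE 0.59, interval -0.96 to 1.91). No member's libraries separated these genotypes, beside 8.85% of genes that did.

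The summed CPM of the 9 genes was 88.7, 65.7 and 84.7 in WT/WT replicates 1 to 3. It ran from 30.2 to 52.8 in WT/R249C and from 40.6 to 54.6 in R249C/R249C. Slc12a2 made up most of that sum in most libraries; without it the sums were 34.5, 17.2 and 63.4 CPM in WT/WT, against 6.86 to 20.7 CPM (WT/R249C) and 5.24 to 16.7 CPM (R249C/R249C). Without Slc12a2, WT/WT replicate 2 thus lay within the WT/R249C range. These sums are given without a test. Marker sums of B cells and thymocytes were also higher in WT/WT. The 6 B cell and plasma cell markers summed to 1394 to 2989 CPM in WT/WT, to 92.9 to 481.5 CPM with 1 variant copy and to 248.7 to 531.5 CPM with 2, mostly from the immunoglobulin chain Igkc, and Ms4a1 was at 0 in all R249C/R249C libraries. The 8 thymocyte markers summed to 159.6 to 235 CPM in WT/WT, against 76.1 to 158 CPM (WT/R249C) and 99.98 to 145.5 CPM (R249C/R249C). Of these 8, 7 had a lower mean in R249C/R249C than in WT/WT. The other, Cd4, was higher without overlap, at 11.6 to 25.4 against 2.61 to 7.99 CPM. Fibroblast, endothelial and myeloid marker sums overlapped between all genotypes (860 to 2319, 60.4 to 301 and 52.3 to 279 CPM). Dcn, at 671 to 1673 CPM, was the highest of the 6 fibroblast genes in every library. The other 5 had a lower mean in WT/R249C than in WT/WT, and Dcn a higher one. Col1a2 was at 76.3 to 141.7 CPM in WT/WT and 13.3 to 42.6 CPM in WT/R249C, without overlap, beside 2.93% of all genes. In R249C/R249C it was at 24.9 to 125.3 CPM. The part of these cell types in the sums of the ionocyte genes was not tested.

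Markers of salivary gland, whose ducts also use Ascl3, Foxi1 and Slc12a2, were low: 6 measured genes summed to 3.40 to 12.6 CPM over all libraries. Bhlha15, a regulator of secretory acinar cells, had a count in 4 of 11 libraries and at most 2.79 CPM. Of the markers of other mimetic cells, the 6 muscle genes summed to 74.9 to 152.7 CPM in WT/WT and to 52.78 to 60.01 CPM in R249C/R249C, without overlap, as the sum of the ionocyte genes did. In WT/R249C the muscle genes summed to 17.3 to 144.9 CPM and overlapped both. How often sums of other genes separate these genotypes was not tested, nor was any link between the muscle and ionocyte sums. The sums overlapped between all genotypes for 7 tuft cell genes (53.6 to 343 CPM), 6 ciliated cell genes (11.95 to 43.8 CPM) and 6 neuroendocrine genes (48.2 to 197.5 CPM). Of the tuft genes, 1 of 7, Plcb2, was higher in WT/WT (29.2 to 79.7 CPM) without overlap. It was at 4.61 to 28.1 CPM in WT/R249C and 11.8 to 17.5 CPM in R249C/R249C. Of all genes, 2.93% and 8.1% did not overlap in these comparisons with WT/WT.

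The wider ionocyte programme was followed in 25 further genes of ionocytes and of acid- or base-secreting cells. Of these, 22 were tested against WT/WT in each mutant genotype and 19 in the batch A comparison, and edgeR called 0 in each. In R249C/R249C against WT/WT, 8 were higher and 14 lower, with a median log2 fold change of -0.16, and in WT/R249C against WT/WT 9 were higher and 13 lower, with a median of -0.11. The 2 regulators at the head of this list differed in level. Foxi3, the third member of the Foxi family, was found in WT/WT replicate 1 alone, at 1.98 CPM. Tfcp2l1, a factor of kidney intercalated and duct cells, had counts throughout. Its mean was 32.7 ± 4.98 CPM in WT/WT, 30.2 ± 6.61 CPM for WT/R249C libraries and 30.5 ± 25.6 CPM for R249C/R249C libraries.

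Among the genes of this list with a higher fitted value against WT/WT was the exchanger pendrin. Slc26a4 encodes pendrin, which exchanges chloride and bicarbonate in base-secreting cells. It had 0, 0 and 8 counts in WT/WT replicates 1 to 3, the last being 0.0439 CPM. In WT/R249C it was at 8.28, 3.93, 26.3, 4.30 and 0 CPM, and in R249C/R249C at 5.46, 1.41 and 9.30 CPM. Pendrin was thus well above every WT/WT library in 7 of the 8 libraries with R249C, the exception being WT/R249C replicate 5. The log2 fold change was 7.17 (SE 3.10, unadjusted p = 0.0463, edgeR adjusted p of 1) for R249C/R249C and 7.97 (SE 2.80, unadjusted p = 0.0192, edgeR adjusted p of 1) for WT/R249C against WT/WT. The sizes were loose: for R249C/R249C the value was 3.99 without WT/R249C replicate 4 and 11.25 without WT/WT replicate 3, and for WT/R249C it was 4.74 and 12.32 without the same libraries. Within batch A the values were 12.15 and 13.3. Neither the WT/WT library of batch A nor the WT/WT libraries left without replicate 3 had a pendrin count. The values 11.25, 12.32, 12.15 and 13.3 thus set no size. DESeq2 gave adjusted p-values of 0.0560 and 0.00105 for the same contrasts, so that it called the second, and limma voom gave 1.00 and 0.799. Pendrin was highest in WT/R249C replicate 3, as was Cftr. The WT/WT libraries, however, had Cftr at 6.37 to 12.8 CPM beside at most 0.0439 CPM of pendrin. WT/R249C replicate 5, the only mutant library without pendrin, had no Cftr or Atp6v1b1 either. That library had Foxi1 at 9.41 CPM and the highest Ascl3 of all libraries, at 5.77 CPM.

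Atp6v0d2, a restricted subunit of the pump's membrane part, was at 3.82, 5.18 and 0 CPM in WT/WT. It was at 4.54 and 1.94 CPM in WT/R249C replicates 1 and 2 and at 0 in the other 3 and in all R249C/R249C libraries. The pooled R249C/R249C level was at least 260-fold lower than that of WT/WT, taking 3 counts over the 3 libraries as the floor. This rests on 2 of 3 WT/WT libraries, and the genotypes overlapped at 0. The edgeR unadjusted p was 0.0257 and the adjusted p 1, whereas DESeq2 gave an adjusted p of 7.45e-11 and limma voom 0.717.

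**Figure D4:**
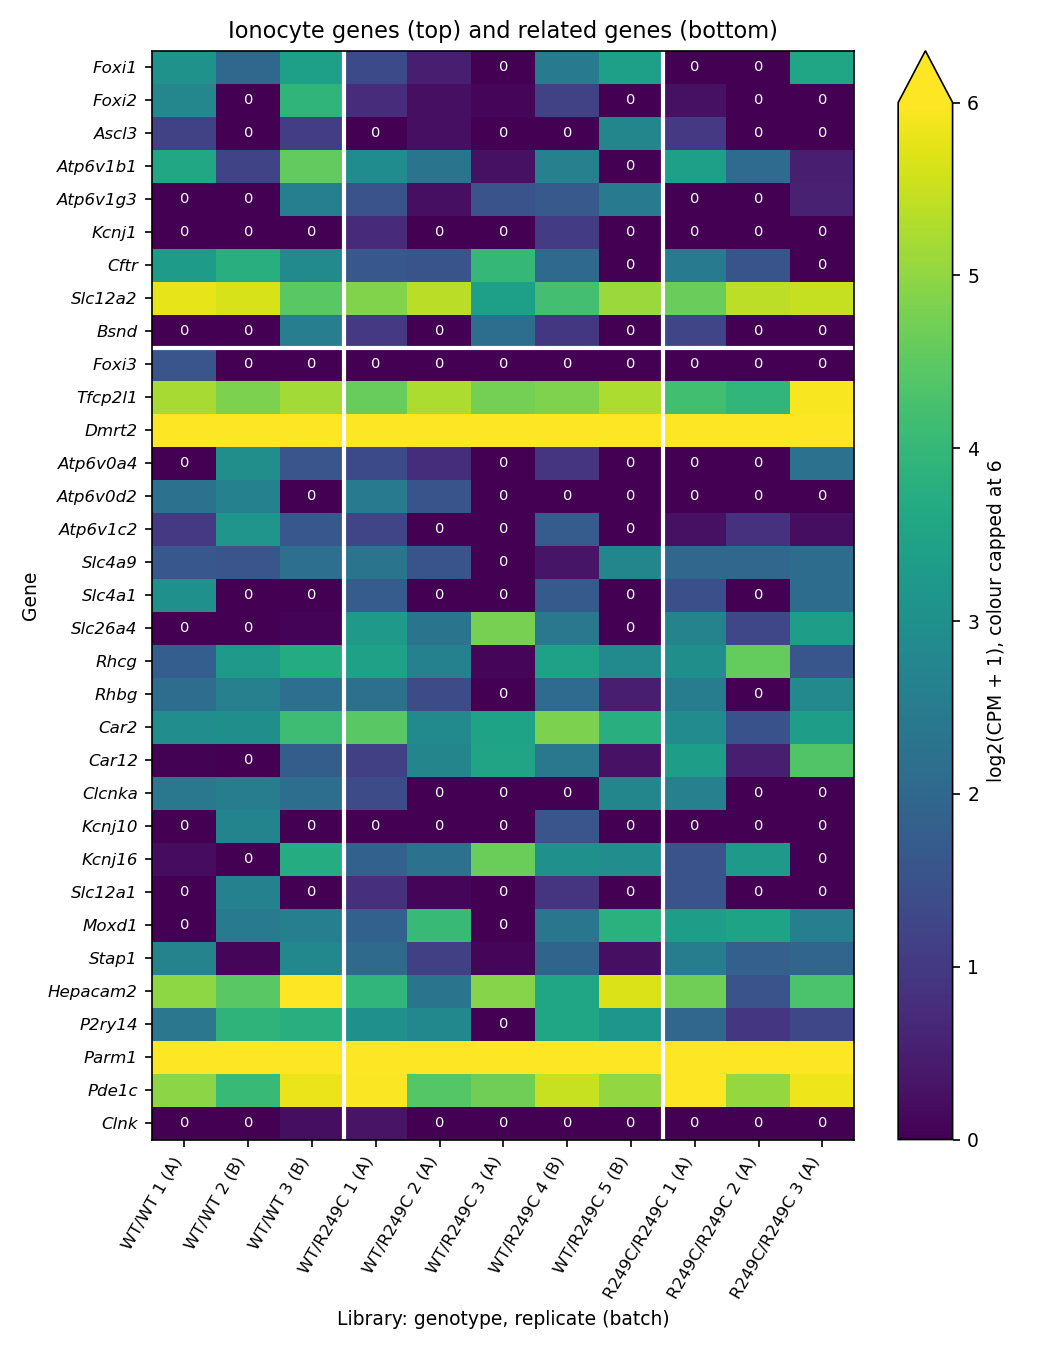
log2(CPM + 1) by colour (capped at 6) of the 9 ionocyte genes (rows above the white line) and related genes (below) in the 11 libraries (columns, batch in brackets), with 0 written where a library had no count. Zeros fall in every genotype, and Slc26a4 has counts in 7 of the 8 libraries with R249C and in 1 of 3 WT/WT libraries, at 0.0439 CPM.

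The general pump subunits and the partners of Slc12a2 were measured well above the ionocyte genes. Of 16 general V-ATPase genes, edgeR called 0 in each comparison, and their median log2 fold change was 0.15 for R249C/R249C and 0.03 for WT/R249C against WT/WT. Atp6v1a, the catalytic A subunit, was at 100.5 ± 28.2 CPM in WT/WT, against 132 ± 19.5 CPM (WT/R249C) and 117 ± 27.6 CPM (R249C/R249C). Atp6v1e1, a stalk subunit, was at 59.4 ± 6.08, 89.2 ± 19.1 and 80.7 ± 4.81 CPM, with log2 fold changes against WT/WT of 0.66 (SE 0.23) for WT/R249C and 0.61 (SE 0.28) for R249C/R249C and an edgeR adjusted p of 1 for each. Among 10 regulators and partners of Slc12a2, the kinase Wnk1, which senses chloride and activates the cotransporter through other kinases, was at 143 ± 41.4, 112 ± 37.8 and 132 ± 36.3 CPM in the same order. Its log2 fold changes against WT/WT were -0.58 (SE 0.18) for WT/R249C and -0.55 (SE 0.22) for R249C/R249C, with an adjusted p of 1 for both. The fitted values are adjusted for batch and the means are not.

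Genes whose pattern over the 11 libraries was most like that of Foxi1 were sought among 15270 named genes with at least 1 CPM in at least 4 libraries, by Pearson's r of log2(CPM + 1). The top 5 were Smyd1 (r = 0.956, Spearman's rho = 0.936), Spink1 (0.911 and 0.837), Sst (0.908 and 0.853), Tomm5 (0.895 and 0.826) and Etv2 (0.889 and 0.885). They were selected as the maximum of that ranking, so no p is given, and all points share their library and its depth. Smyd1, a methyltransferase of muscle, was at 19.1 CPM in WT/R249C replicate 5, 18.1 in WT/WT replicate 3 and 10.01 in R249C/R249C replicate 3, 3 libraries where Foxi1 was at 9.41, 9.41 and 10.4 CPM. It was at or below 0.869 CPM in the 4 libraries where Foxi1 was at 0 or 0.422 CPM. The 3 libraries without Foxi1 counts tied as the farthest from its median. Leaving out 2 of them (WT/R249C replicate 3 and R249C/R249C replicate 1) gave r of 0.839 to 0.932 for these 5 genes, and leaving out all 3, a choice made after seeing the data, gave 0.754 to 0.890. The other ionocyte genes ranked far lower, with r of 0.428 for Ascl3, 0.421 for Atp6v1g3, 0.299 for Slc12a2, 0.012 for Atp6v1b1 and -0.304 for Cftr, while Foxi2, Kcnj1 and Bsnd did not reach 1 CPM in 4 libraries.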

How the data were processed

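RNA of EpCAM-positive, CD45-negative thymic cells was sequenced in 11 libraries. Whole-number counts per gene were deposited by the authors, not normalized. HISAT2, StringTie and FastQC are named in the submitters' processing notes, with build mm39; versions, annotation release, strand setting and whether the counts are tallied reads are not given in the sources used here. Per the file headers, batch A columns carry the word trimmed. Symbols came from a table of GENCODE names (52073 of 56691 genes matched). Genes were tested in R 4.3.3 with edgeR 4.0.16 (quasi-likelihood, robust, TMM, filterByExpr, two-sided, Benjamini-Hochberg over all genes tested, threshold 0.05), beside DESeq2 1.42.0 and limma 3.58.1 voom. A batch term was fitted in both comparisons with WT/WT. The SE is the log2 fold change over the square root of F. Fits were also run on counts simulated from each gene's overall mean without a batch effect. These differ from the real libraries, and no result here rests on them. p-values measure the spread between libraries, which the titles call biological replicates. Reads carry no molecular identifiers. The 55 pairwise correlations of libraries ran from 0.738 to 0.889. The members and lists were chosen with earlier results of these data known. Named are all 9 members, the first 2 and the 3 of smallest p of each further list discussed, and the 5 genes most like Foxi1; Bhlha15 and Ms4a1 are among the named of their lists. One gene that this rule names is not reported here. Alternatives covered scaling, filters, tools, batch, contested labels, the replicate block and leaving out each library.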

Additional observations from a re-analysis of the deposited data

Results flagged for a closer look

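In 3 of the 9 groups of 5 WT/R249C values, 1 library stood apart from the other 4 by Dixon's test at the 95% level. By chance that level flags about 1 in 20 groups of normally distributed values. Several of these groups hold repeated zeros, so that rate does not apply to them and the number flagged is a description. Ascl3 was at 5.77 CPM in WT/R249C replicate 5, where the next library was at 0.186. Cftr was at 15.0 CPM in WT/R249C replicate 3, where the next was at 3.13. Bsnd was at 3.48 CPM in WT/R249C replicate 3, where the next was at 0.999, and it barely passed (0.713 against a critical value of 0.71). WT/R249C replicate 3 has the smallest total and replicate 5 a contested label; their part in these values was not tested.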

How the results depend on the processing

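No member was called by any tool or alternative run. Over all genes edgeR called 0 in each comparison and DESeq2 called 408 for R249C/R249C and 276 for WT/R249C against WT/WT, and 31 between the mutant genotypes; the cause was not tested. Of 23 fitted log2 fold changes of members, 11 kept their sign in every alternative run and 12 did not, in 44 of 432 alternative values. Foxi2 kept its sign in all 3 comparisons, but not its size. For R249C/R249C against WT/WT, Ascl3 turned to 0.18 with the contested libraries counted as R249C/R249C. Atp6v1g3 turned to 0.086 with limma voom, 7.13 without the contested libraries, 1.83 with them as R249C/R249C and 6.97 in batch A, and Bsnd to 1.90 with limma voom, 8.82 without the contested libraries and 8.66 in batch A. For WT/R249C against WT/WT, Foxi1 turned to 0.20 in batch B, Ascl3 to 0.59 without a batch term and 2.42 in batch B, and Bsnd to 1.48 with limma voom, 10.3 without the contested libraries, 1.27 with them as R249C/R249C and 10.2 in batch A. The single WT/WT library of batch A had no count of Atp6v1g3 or Bsnd, so their batch A values set no size. Without the contested libraries batch B holds only WT/WT, so those values rest on the same library. Between the mutant genotypes, limma voom turned Foxi1 to -4.01 and Atp6v1b1 to -0.58.

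With the replicate number as a block, edgeR called 0 genes in each comparison. The block turned Atp6v1g3 to 2.62 and Bsnd to 9.55 for R249C/R249C against WT/WT, in the heterozygous comparison Ascl3 to 1.14, Cftr to 0.037 and Bsnd to 11.99, and Foxi1 to -6.23 between the mutant genotypes. Deviations of same-numbered libraries correlated from -0.129 to 0.125. With so few libraries a group, and with some same-numbered libraries in the same batch, this cannot tell whether they are paired.

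Leaving out each library in turn gave 0 calls. For R249C/R249C against WT/WT the values then ran from -11.69 to 2.58 for Foxi1, -8.72 to 4.92 for Ascl3, -7.76 to 7.73 for Atp6v1g3, -0.55 to 0.079 for Slc12a2 and -10.54 to 8.07 for Bsnd. For WT/R249C against WT/WT they ran from -2.40 to 0.21 for Foxi1, -5.97 to 2.42 for Ascl3 and -2.24 to 9.48 for Bsnd. Between the mutant genotypes they ran from -9.17 to 3.98 for Foxi1, -0.95 to 1.11 for Atp6v1b1 and -2.61 to 0.14 for Cftr. Among values that kept their sign, those for R249C/R249C against WT/WT ran from -12.1 (without R249C/R249C replicate 1) to -5.40 for Foxi2, from -6.25 (without WT/R249C replicate 4) to -2.16 for Cftr and from -5.18 (without WT/R249C replicate 4) to -0.62 (without WT/WT replicate 3) for Atp6v1b1. For the heterozygous comparison Foxi2 ran from -7.23 (without WT/R249C replicate 4) to -2.63 (without WT/WT replicate 3), Atp6v1b1 from -5.88 to -0.67 and Cftr from -5.28 to -1.06 (lowest without WT/R249C replicate 4 for both), Slc12a2 from -1.03 to -0.44, and Atp6v1g3 from 0.48 (without WT/WT replicate 1) to 10.86 (without WT/WT replicate 3). Between the mutant genotypes Foxi2 ran from -8.08 (without R249C/R249C replicate 1) to -0.98 (without WT/R249C replicate 1), Atp6v1g3 from -10.1 (without R249C/R249C replicate 3) to -2.50, Bsnd from -10.19 to -0.10 and Slc12a2 from 0.05 (without WT/R249C replicate 3) to 0.95. Leaving out the contested libraries was not run for the last comparison, which does not hold them. Several of these runs left a genotype with no count of the gene, and their values set no size. Without WT/WT replicate 3, WT/WT had no count of Atp6v1g3 or Bsnd. R249C/R249C had none of Foxi2, Ascl3 or Bsnd without its replicate 1, and none of Foxi1 or Atp6v1g3 without its replicate 3. With 3 to 5 libraries a group and zeros beside large counts, the intervals of all members but Slc12a2 span many-fold changes in both directions.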
